A study of Mus musculus with 24 samples.

Results

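This section follows 10 amino acid carrier genes of the plasma membrane, picked by name out of the 38924 genes listed for each library. They are the heavy chain Slc3a2 with its light chains Slc7a5 and Slc7a11, the cationic amino acid carriers Slc7a1 and Slc7a3, the neutral amino acid carriers Slc38a2, Slc1a4 and Slc1a5, the glycine carrier Slc6a9 and the branched-chain amino acid carrier Slc43a1. All 10 symbols were found in all 24 libraries. The study asked how a dominant mutation of Gars, the glycyl-tRNA synthetase gene, changes the mRNA on the ribosomes of spinal motor neurons. Each library held ribosome-bound RNA from the spinal cord of a mouse of 8 weeks, on a B6.CgxB6.129 background. In this RiboTag method, cells with Cre recombinase switch to an HA-tagged Rpl22, a protein of the large ribosomal subunit, and their ribosomes are then pulled down by the tag.

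There were 4 groups of 6 libraries, each library named here by the number in its label, taken as the mouse number. C201R with Cre carried the C201R allele of Gars over the wild-type allele (C201R+/-) together with ChAT-Cre (Chat+/-). Wild type (WT) with Cre had ChAT-Cre and no C201R allele. C201R without Cre and WT without Cre differed from these in lacking Cre, and they give the background of the pulldown. Mice of all 4 groups carried the tagged Rpl22 allele (Rpl+/-). ChAT-Cre acts in cholinergic cells, which in the spinal cord include motor neurons and other cholinergic neurons, so the pulldown is not of motor neurons alone. The mutation is present in every cell of C201R mice, whether or not the cell has Cre.

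Cells that run short of an amino acid, or whose ribosomes stall, switch on the kinase Gcn2, which phosphorylates the initiation factor eIF2 and so favours translation of the transcription factor Atf4. Atf4 binds composite elements joining a C/EBP and an ATF motif and raises genes for amino acid synthesis, uptake and tRNA charging. Plasma membrane carriers belong to that programme in cultured mammalian cells, where they restore the amino acid supply. Slc3a2 is no carrier itself. It brings light chains of the Slc7 family to the membrane, among them Slc7a5, which exchanges large neutral amino acids such as leucine, and Slc7a11, which takes up cystine in exchange for glutamate.

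The composite element was looked for in the promoters of the members. RefSeq promoter windows of GRCm38.p6, from 250 bases before to 50 bases after a gene's start, were at hand for 7 of the 10 members, with 10 windows between them. Slc7a5, Slc7a3 and Slc1a5 had no window and were not searched. The letters TGATGNAA, on either strand, were present in windows of 2 members, Slc7a11 and Slc1a4. Among all 32851 windows, 3.97% held the letters, and 4.51% of all genes with a window had them in at least 1. Slc7a11 had the letters on both strands, first at position -66 and again at -47, counting the first base of the gene as 1. In Slc1a4 they began at position -4, on the strand opposite the gene. These windows follow with the letters in capitals. Beside them is that of Slc3a2, the member with the highest mean level per length in C201R with Cre, which had no match. All are written in the direction of the gene, which is the minus strand: Slc7a11 at chr3:50443564-50443863, Slc1a4 at chr11:20332664-20332963 and Slc3a2 at chr19:8713848-8714147. The letters TGACNNNGC, a core of the antioxidant response element, were found on either strand in windows of 4 members, Slc7a1, Slc38a2, Slc6a9 and Slc43a1. They were in 12.39% of all windows, and 13.99% of all genes with a window had them. A match in a window of this size describes its letters and does not show binding.
Slc7a11: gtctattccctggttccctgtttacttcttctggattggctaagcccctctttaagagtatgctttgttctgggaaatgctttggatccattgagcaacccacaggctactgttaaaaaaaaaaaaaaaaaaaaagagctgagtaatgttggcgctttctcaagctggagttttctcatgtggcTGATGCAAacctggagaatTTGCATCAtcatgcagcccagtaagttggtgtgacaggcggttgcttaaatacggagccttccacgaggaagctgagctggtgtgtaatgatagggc
Slc1a4: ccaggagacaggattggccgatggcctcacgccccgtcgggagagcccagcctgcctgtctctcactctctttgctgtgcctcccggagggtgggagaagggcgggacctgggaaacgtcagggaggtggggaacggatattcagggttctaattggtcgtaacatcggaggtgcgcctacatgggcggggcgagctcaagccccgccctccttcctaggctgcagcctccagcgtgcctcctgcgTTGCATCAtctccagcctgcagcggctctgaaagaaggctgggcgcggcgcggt
Slc3a2: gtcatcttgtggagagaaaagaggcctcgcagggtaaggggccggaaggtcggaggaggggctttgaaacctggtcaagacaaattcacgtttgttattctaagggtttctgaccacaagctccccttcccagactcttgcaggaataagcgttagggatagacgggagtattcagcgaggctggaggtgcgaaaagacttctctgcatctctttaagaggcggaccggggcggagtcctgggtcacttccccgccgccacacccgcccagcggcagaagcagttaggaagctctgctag

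Library totals ranged from 12110691 to 21034480 expected counts in C201R with Cre and from 13519901 to 28294972 in WT with Cre. They ranged from 8898845 to 14302608 in C201R without Cre and from 9143786 to 13418938 in WT without Cre. Chat, which makes acetylcholine, averaged 73.6 ± 25.5 CPM (counts scaled to library size, a standard unit that does not divide by gene length) in C201R with Cre and 1.9 ± 0.931 CPM in C201R without Cre, and 57.6 ± 4.63 CPM in WT with Cre and 4.28 ± 2.6 CPM in WT without Cre (SD, n = 6 each). Gars averaged 161 ± 23.8 CPM in C201R with Cre and 92.4 ± 8.76 CPM in WT with Cre, a log2 change of 0.80 ± 0.12 (SE, edgeR adjusted p = 0.002). Counts per gene do not show the C201R base change, so they do not check the genotype labels. Mice 14003-1 (C201R with Cre) and 14701-9 (WT with Cre) stood apart, with 15.76% and 17.11% of counts from mitochondrial transcripts. Their summed levels of cholinergic and motor neuron markers, 945 and 852 CPM, were the lowest of their groups, whose medians were 1200 and 1400 CPM. Calls on the carriers that change without these mice are given both ways. The library numbers formed 2 runs, called library series 1 and 2 here, whose meaning the labels do not give. Series 1 held 3 libraries of C201R with Cre and 2 of WT with Cre.

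Among pulldowns with Cre, 5 of the 10 carriers were higher in C201R than in WT, and 0 were lower. They were the heavy chain Slc3a2, its leucine-carrying partner Slc7a5, the arginine and lysine carrier Slc7a1, the serine and alanine carrier Slc1a4 and the glycine carrier Slc6a9. A gene was called at a Benjamini-Hochberg adjusted p under 0.05 from edgeR's quasi-likelihood test over all genes, and 4.11% of the 14634 genes tested were called in this comparison (601 genes, of which 335 were higher in C201R). Of the 10 carriers, 9 passed the filter on low counts and 4 of these did not pass the test. Log2 changes of the 9 ranged from 0.14 to 2.44 with a median of 1.29, against a median of -0.01 over all genes tested. The number of carriers called varied with the analysis. It was 3 with the share of Gm26924, a gene model in which reads of ribosomal RNA gather, as a covariate, 7 without mice 14003-1 and 14701-9, and 0 when library totals replaced TMM scaling. Gm26924 took 8.01% to 43.26% of counts in C201R with Cre and 7.45% to 30.8% in WT with Cre. Within their groups, 14003-1 and 14701-9 had the highest shares. Mice 14003-4 and 14701-5 of C201R with Cre also had 36.89% and 32.9%. In WT with Cre the next highest share was 11.93%, in mouse 14002-6. With library totals the median of the carriers was 1.01 and that of all genes was -0.26.

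**Figure D1:**
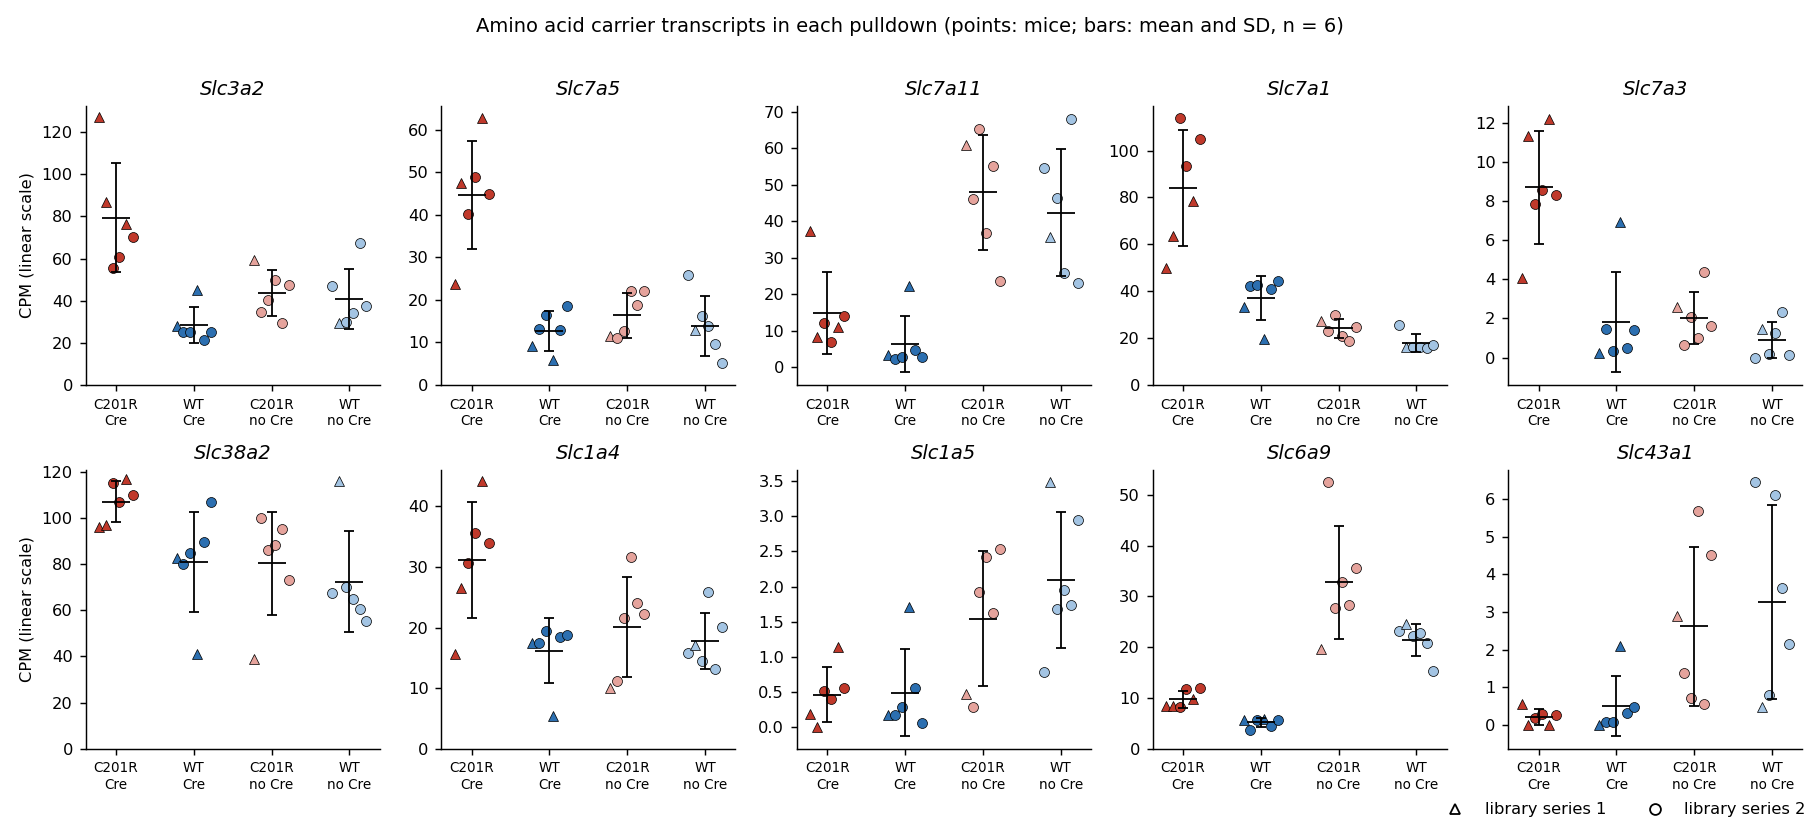
CPM of each carrier (y axis, linear scale) in each of the 24 libraries, in 4 groups of 6 along the x axis, with triangles for library series 1 and circles for series 2. Horizontal bars are means and error bars are SD. Slc3a2, Slc7a5, Slc7a1 and Slc6a9 show no overlap between C201R and WT with Cre. The share of all genes without such overlap was not counted. Slc7a11 and Slc6a9 lie higher in most libraries without Cre.

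Slc3a2 (ENSMUSG00000010095) had 55.4, 73.3 and 127 CPM in C201R with Cre (lowest, median and highest of 6), against 21.4, 25.3 and 45.1 CPM in WT with Cre. All 6 C201R libraries lay above all 6 WT libraries. For this and the other carriers without overlap, the share of all genes tested without overlap was not counted. This was a log2 change of 1.39 ± 0.17 (SE, edgeR adjusted p = 2.8e-04), a 2.62-fold difference. The value was 1.36 ± 0.12 in library series 2 and 1.46 ± 0.39 in series 1, where no carrier was called among 5 libraries. In each of the 12 fits that left out 1 library, Slc3a2 kept its call, with values from 1.28 to 1.5.

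Slc7a5 (ENSMUSG00000040010), the light chain of the leucine exchanger, had 23.8, 46.2 and 62.7 CPM in C201R with Cre, against 5.89, 13 and 18.5 CPM in WT with Cre. The groups did not overlap, and the lowest library of each was one of the 2 that stood apart, 14003-1 for C201R and 14701-9 for WT. Slc7a5 was higher in C201R by a log2 change of 1.95 ± 0.25 (SE, adjusted p = 5.5e-04), the largest of the 5 called carriers. Its log2 change was 1.56 ± 0.15 in library series 2 and 2.59 ± 0.53 in series 1. The call held in all 12 fits without 1 library, at 1.76 to 2.06.

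Slc7a11 (ENSMUSG00000027737), the cystine carrier whose window holds the letters TGATGNAA on both strands, was not called. It had 7.03, 11.6 and 37.2 CPM in C201R with Cre and 2.39, 3.18 and 22.2 CPM in WT with Cre. The highest value of each group came from 14003-1 and 14701-9, and without these libraries the groups did not overlap, the other C201R libraries reaching 14.1 CPM and the other WT libraries 4.69 CPM. The log2 change was 1.30 ± 0.48 (SE, edgeR adjusted p = 0.16) with all 12 libraries and 1.73 ± 0.24 (adjusted p = 3.6e-04) without these 2. It was 1.99 (adjusted p = 0.017) without 14701-9 alone, 1.81 ± 0.27 in library series 2 and 0.61 ± 0.93 in series 1. Both libraries also had the highest sums of endothelial and mural markers in their groups, 97.8 CPM in 14003-1 and 88.5 CPM in 14701-9. The medians were 41.4 CPM in C201R with Cre and 35.8 CPM in WT with Cre. Mouse 14701-9 was also highest of WT with Cre for astrocyte (322 CPM), oligodendrocyte (1080 CPM), microglia (27.2 CPM), blood (181 CPM) and spinal neuron (139 CPM) markers. The astrocyte sum of 14003-1 was 165 CPM, against a median of 170 CPM in C201R with Cre. The part of any of these cells in the Slc7a11 values was not tested.

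Cystine taken up by Slc7a11 is reduced to cysteine, the limiting part of glutathione, so a list of 12 genes for glutathione and targets of the antioxidant regulator Nrf2 was set beside it. Of these 12 genes, 2 were higher in C201R with Cre, 0 were lower, and the median log2 change was 0.11. Chac1, which breaks down glutathione and is also a target of Atf4, averaged 31.6 ± 9.39 CPM in C201R and 10.9 ± 3.33 CPM in WT (SD, n = 6 each; log2 change 1.58 ± 0.26, SE, edgeR adjusted p = 0.0032). Hmox1, which breaks down haem, averaged 7.01 ± 0.323 CPM in C201R and 3.02 ± 1.1 CPM in WT (1.21 ± 0.28, adjusted p = 0.027). The subunits of the enzyme that starts glutathione synthesis did not pass the test, with log2 changes of -0.54 ± 0.27 for Gclm and -0.40 ± 0.36 for Gclc.

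Slc7a1 (ENSMUSG00000041313), the main carrier of arginine and lysine in many cell types, had the smallest p of the carriers. It had 49.7, 85.9 and 114 CPM in C201R with Cre, against 19.8, 41.6 and 44.3 CPM in WT with Cre, with no overlap. Its log2 change was 1.29 ± 0.15 (SE, adjusted p = 1.5e-04), and it was 1.30 in each library series taken alone. The call held in all 12 fits without 1 library, at 1.19 to 1.41.

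Slc7a3 (ENSMUSG00000031297), a cationic amino acid carrier of neurons, was scarcer. It had 4.05, 8.41 and 12.2 CPM in C201R with Cre and 0.231, 0.943 and 6.94 CPM in WT with Cre. The groups overlapped through 14003-1, the lowest C201R library, and 14701-9, the highest WT library, while the next WT library had 1.48 CPM. The log2 change of 2.44 ± 0.65 (SE, edgeR adjusted p = 0.051) did not pass the test. Without these 2 libraries it was 3.63 ± 0.45 (adjusted p = 2.1e-04), and in library series 2 alone it was 3.13 ± 0.39 (adjusted p = 2.3e-04). In series 1 it was 1.44 ± 1.21.

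Slc38a2 (ENSMUSG00000022462), a sodium-coupled carrier of small neutral amino acids such as glutamine and alanine, was abundant in both genotypes. It had 96.3, 109 and 117 CPM in C201R with Cre and 41, 83.6 and 107 CPM in WT with Cre. The groups overlapped, and the log2 change of 0.49 ± 0.16 (SE, adjusted p = 0.12) did not pass the test. Its 95% interval ran from 0.14 to 0.84.

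The related exchangers Slc1a4 and Slc1a5 carry small neutral amino acids, and differed in level. Slc1a4 (ENSMUSG00000020142) carries serine, alanine and cysteine, and its window holds the letters TGATGNAA next to the start of the gene. It had 15.7, 32.3 and 44.1 CPM in C201R with Cre, against 5.42, 18 and 19.5 CPM in WT with Cre. The only C201R library within the WT range was 14003-1. The log2 change was 1.04 ± 0.27 (SE, edgeR adjusted p = 0.041), and it was 0.91 ± 0.14 (adjusted p = 8.7e-04) without 14003-1 and 14701-9. The call was lost in 10 of the 12 fits without 1 library, at adjusted p from 0.05 to 0.12, and kept in the 2 fits without 14003-1 or 14701-9. In library series 2 it was 0.85 ± 0.12, and 1.35 ± 0.64 in series 1.

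Slc1a5 (ENSMUSG00000001918), the glutamine exchanger of many dividing cells, was near the limit of detection with Cre. It had 0, 0.456 and 1.14 CPM in C201R and 0.0617, 0.237 and 1.71 CPM in WT, from 66 counts over the 6 C201R libraries and 63 counts over the 6 WT libraries. Its log2 change of 0.14 ± 0.82 (SE, adjusted p = 0.95) had a 95% interval from -1.6 to 1.87, and its sign changed with the libraries used. Without 14003-1 and 14701-9 it was 1.07 ± 0.80 (adjusted p = 0.4). Slc43a1 (ENSMUSG00000027075), which carries branched-chain amino acids and phenylalanine, did not pass the count filter with Cre. It had 25 counts over the C201R libraries and 53 over the WT libraries with Cre, with 0, 0.221 and 0.553 CPM in C201R and 0, 0.187 and 2.09 CPM in WT (exact two-sided permutation test on log2(CPM + 1), p = 0.59; the smallest p the design allows is 0.0022). A genotype difference of Slc43a1 was thus not detected, and the size of difference that these counts could show was not computed.

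Slc6a9 (ENSMUSG00000028542) encodes the glycine carrier GlyT1, best known from astrocytes, where it clears glycine around synapses. It moves the amino acid that the enzyme encoded by Gars charges. Slc6a9 had 8.27, 9.13 and 11.9 CPM in C201R with Cre, against 3.71, 5.63 and 5.89 CPM in WT with Cre. The groups did not overlap, and Slc6a9 was higher in C201R by a log2 change of 0.93 ± 0.21 (SE, edgeR adjusted p = 0.022). The call was lost in 5 of the 12 fits without 1 library, at adjusted p from 0.055 to 0.095 and log2 changes of 0.84 to 0.96. The log2 change was 1.13 ± 0.21 in library series 2 and 0.66 ± 0.54 in series 1. The sum of 8 astrocyte markers was 119, 170 and 213 CPM in C201R with Cre and 138, 188 and 322 CPM in WT with Cre. Sums of 6 markers of glycinergic and other spinal neurons were 129, 138 and 172 CPM in C201R and 98.7, 108 and 139 CPM in WT, and their part in the Slc6a9 values was not tested. Slc6a5, the glycine carrier of glycinergic neurons, averaged 57.2 CPM in C201R and 42.5 CPM in WT with Cre and was not called (0.39 ± 0.15, adjusted p = 0.16). Exons of Slc6a9 overlap those of Ccdc24 on the opposite strand over 1258 bases in GENCODE, and no source used here says that reads were counted by strand, so reads of this stretch cannot be assigned to either gene with certainty. Ccdc24 averaged 1.38 CPM in C201R and 0.947 CPM in WT with Cre and was not called (adjusted p = 0.53).

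The other marker lists, in pulldowns with Cre, gave 0 called genes among 8 astrocyte, 9 endothelial and mural, 8 oligodendrocyte, 4 microglia, 5 blood and 5 spinal neuron markers tested. Of 7 cholinergic markers, Chodl, a gene of fast motor neurons, was lower in C201R (195 CPM in C201R and 415 CPM in WT; -1.02 ± 0.14, SE, adjusted p = 6.3e-04). Summed cholinergic markers were 945, 1200 and 1360 CPM in C201R with Cre and 852, 1400 and 1620 CPM in WT with Cre. Summed blood markers, mainly globins, were 22.6, 165 and 491 CPM in C201R with Cre and 25.9, 46.5 and 181 CPM in WT with Cre. Their median log2 change was 1.21, and that of the 4 microglia markers tested was 0.52; the part of such cells in the carriers' values was not tested. No marker was at 0 counts over a whole group with Cre; 5 of 8 microglia markers were below a mean of 1 CPM in either genotype. In these bulk samples, fewer cells of a type and less RNA per cell cannot be told apart.

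The regulators of this programme were measured in the same fit. Of 8 regulators of the Atf4 circuit, 7 were tested, and 5 were higher in C201R with Cre. The median log2 change over the 7 was 1.66. Atf4 itself averaged 175 ± 57 CPM in C201R with Cre and 50.4 ± 15.5 CPM in WT with Cre (SD, n = 6 each; 1.66 ± 0.18, SE, adjusted p = 9.4e-05). Nupr1, a stress-responsive chromatin protein gene, had a log2 change of 5.05 ± 0.28, and the transcription factors Atf5, Ddit3 and Cebpg had log2 changes of 2.92 ± 0.33, 1.63 ± 0.25 and 0.67 ± 0.17. Of 30 other plasma membrane amino acid carriers, 22 passed the filter, 0 were called in either direction by edgeR, and their median log2 change was 0.01. The pair with the highest mean CPM over the 12 libraries with Cre, a scale not divided by length, were the astrocyte glutamate carrier Slc1a2, with 113 CPM in C201R and 143 CPM in WT with Cre (-0.34 ± 0.22), and the neuronal glutamine carrier Slc38a1, with 68.9 CPM in C201R and 62.4 CPM in WT with Cre (0.25 ± 0.13). Of 9 lysosomal carriers, 8 were tested, and Slc7a14 was called. It averaged 116 ± 43.3 CPM in C201R with Cre and 258 ± 87.6 CPM in WT with Cre (SD, n = 6 each), lower by a log2 change of -1.01 ± 0.19 (SE, edgeR adjusted p = 0.0084).

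Without Cre, 0 of the 10 carriers differed between C201R and WT, where 0% of 14400 genes were called by edgeR. At an unadjusted p under 0.05 there were 455 genes, and DESeq2 called 2. Log2 changes of the 10 carriers ranged from -0.43 to 1.22, with a median of 0.17. Slc6a9 had 19.6, 30.6 and 52.5 CPM in C201R without Cre and 15.4, 22.5 and 24.5 CPM in WT without Cre (0.58 ± 0.23, SE, unadjusted p = 0.02 and adjusted p = 1 with edgeR). These groups overlapped in 1 C201R library. Slc7a1 had 18.7, 23.9 and 29.9 CPM in C201R without Cre and 15.6, 16.3 and 25.6 CPM in WT without Cre (0.44 ± 0.22, adjusted p = 1). Slc3a2 and Slc7a5 had log2 changes of 0.06 ± 0.23 and 0.20 ± 0.32, with 95% intervals from -0.43 to 0.55 and from -0.47 to 0.88.

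**Figure D2:**
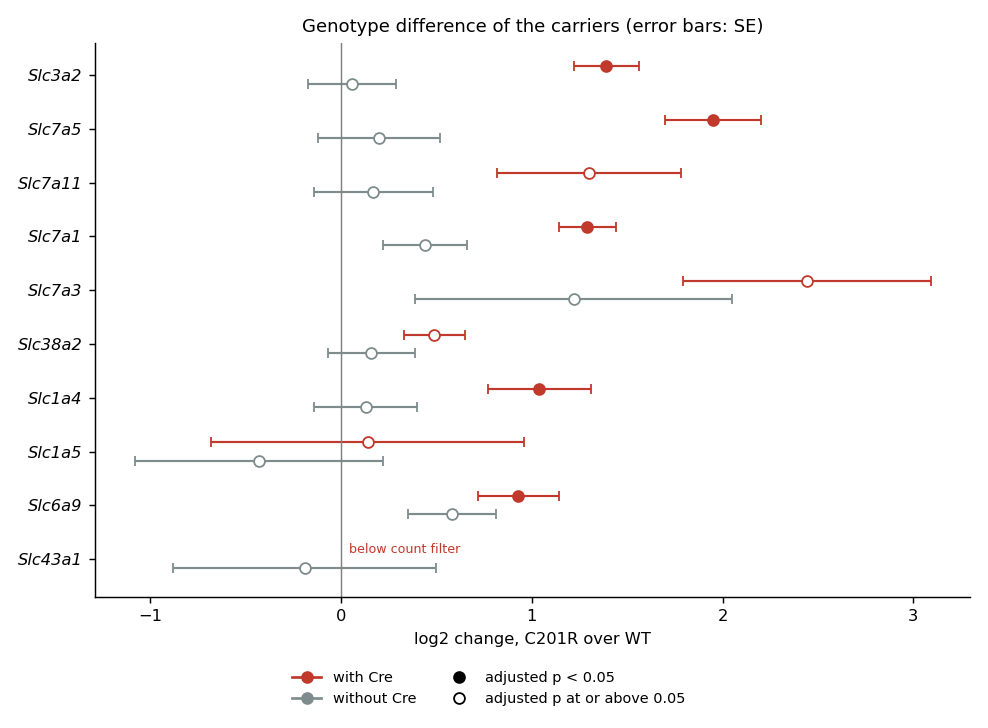
Log2 change of each carrier between C201R and WT (x axis), with Cre in red and without Cre in grey, from edgeR, with SE bars. Filled points have an adjusted p under 0.05. The 5 filled points, Slc3a2, Slc7a5, Slc7a1, Slc1a4 and Slc6a9, all belong to pulldowns with Cre, and Slc43a1 was below the count filter there.

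Whether the genotype difference itself was larger with Cre than without was tested as an interaction over all 24 libraries. None of the 10 carriers passed with edgeR, where 0.13% of 16109 genes were called (21 genes, and 1462 at an unadjusted p under 0.05). The difference of log2 changes was 1.36 ± 0.30 for Slc3a2 (SE, edgeR adjusted p = 0.069) and 1.72 ± 0.43 for Slc7a5 (adjusted p = 0.13). DESeq2 called both, with adjusted p = 0.0085 for Slc3a2 and 0.016 for Slc7a5. Slc3a2 also passed with edgeR without mice 14003-1 and 14701-9 (1.36 ± 0.29, adjusted p = 0.027). Leaving out 1 library, it passed without 14701-9 (adjusted p = 0.035) or 14701-1 (adjusted p = 0.011), and Slc7a5 passed without 14702-6 (adjusted p = 0.038). For Slc7a1 the difference was 0.78 ± 0.27 (adjusted p = 0.34), for Slc1a4 0.91 ± 0.40 (adjusted p = 0.48) and for Slc6a9 0.32 ± 0.31 (adjusted p = 0.80). With edgeR the genotype difference of the carriers was therefore not shown to depend on Cre. In the same fit Atf4 was called, with a difference of 1.57 ± 0.28 (adjusted p = 0.0071).

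Pulldowns with Cre were also set against pulldowns without Cre within each genotype, which shows where the tagged ribosomes hold more or less of a transcript than the background. These comparisons use the same libraries with Cre as the genotype comparison. Mitochondrial transcripts took 3.03% to 15.76% of counts with Cre and 35.19% to 49.6% without Cre in C201R, and 1.24% to 17.11% with Cre and 42.05% to 55.54% without Cre in WT, and their part in these values was not tested. In C201R, 6 carriers were higher with Cre and 2 were lower among the 9 that passed the filter, while 56.8% of the 14335 genes tested were called. In WT, 1 carrier was higher with Cre and 4 were lower among the 9 tested, while 60.6% of the 14264 genes tested were called. By direction, 30.5% of all genes tested were higher with Cre and 26.3% lower in C201R. In WT 27.7% were higher and 32.8% lower. The carriers' counts are read against these shares.

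Slc7a1 was the carrier called higher with Cre in both genotypes. Its levels with Cre are given above, and without Cre its median was 23.9 CPM in C201R and 16.3 CPM in WT. The log2 change was 1.90 ± 0.21 in C201R (SE, edgeR adjusted p = 6.9e-07) and 0.94 ± 0.19 in WT (adjusted p = 5.7e-04). The other carriers called higher with Cre in C201R were Slc7a5 (1.55 ± 0.27), Slc7a3 (2.05 ± 0.46), Slc3a2 (0.68 ± 0.20), Slc1a4 (0.86 ± 0.31) and Slc38a2 (0.63 ± 0.20). Slc1a4 and Slc38a2 were not called in library series 2 alone (0.54 and 0.26) or with RLE scaling (0.67 and 0.44). In WT the same carriers had log2 changes of -0.27 ± 0.33 for Slc7a5, 0.31 ± 0.95 for Slc7a3, -0.25 ± 0.26 for Slc1a4 and -0.01 ± 0.23 for Slc38a2, and none of these 4 passed the test.

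Slc3a2 was called in opposite directions. It had 55.4, 73.3 and 127 CPM with Cre and 29.5, 43.8 and 59.5 CPM without Cre in C201R, and 21.4, 25.3 and 45.1 CPM with Cre and 29.4, 36 and 67.2 CPM without Cre in WT. With Cre it was higher in C201R (0.68 ± 0.20, SE, edgeR adjusted p = 0.0081) and lower in WT (-0.78 ± 0.26, adjusted p = 0.017), though with library totals in place of TMM the WT value was 0.18, where the median of all genes was 0.84. The WT call was also lost with no filter on low counts (-0.57, adjusted p = 0.058), with a replicate block (-0.73, adjusted p = 0.12) and without WT mouse 14702-3 (-0.67, adjusted p = 0.058). The test of the difference between these changes is the interaction above, which Slc3a2 did not pass with edgeR.

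Slc7a11 and Slc6a9 were lower with Cre in both genotypes. Slc7a11 had 7.03, 11.6 and 37.2 CPM with Cre and 23.6, 50.6 and 65.3 CPM without Cre in C201R (-1.91 ± 0.39, SE, edgeR adjusted p = 6.6e-04). In WT it had 2.39, 3.18 and 22.2 CPM with Cre and 23.2, 41.1 and 68.1 CPM without Cre (-3.53 ± 0.59, adjusted p = 2.7e-04). Slc6a9 had log2 changes of -1.55 ± 0.25 in C201R (adjusted p = 5.2e-05) and -2.27 ± 0.22 in WT (adjusted p = 3.7e-07). Astrocyte marker sums moved the same way, with medians of 170 CPM with Cre and 2240 CPM without Cre in C201R. In WT these medians were 188 CPM with Cre and 1900 CPM without Cre. Every other list of non-cholinergic markers also had a lower median with Cre in both genotypes. For oligodendrocyte markers it was 614 CPM with Cre and 6620 CPM without Cre in C201R, and 646 CPM and 6020 CPM in WT. The part of any of these cells in the Slc7a11 and Slc6a9 values was not tested.

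Slc1a5 had 66 counts with Cre and 90 without Cre in C201R (-1.41 ± 0.90, SE, adjusted p = 0.19), and 63 counts with Cre and 139 without Cre in WT (-2.70 ± 0.69, edgeR adjusted p = 0.003). Slc43a1 had 25 counts with Cre and 164 without Cre in C201R, and in WT it had 0, 0.187 and 2.09 CPM with Cre and 0.485, 2.89 and 6.45 CPM without Cre. Both differences passed an exact two-sided permutation test on log2(CPM + 1), with p = 0.0043 in C201R and p = 0.017 in WT (0.013 and 0.026 adjusted over 3 tests).

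**Figure D3:**
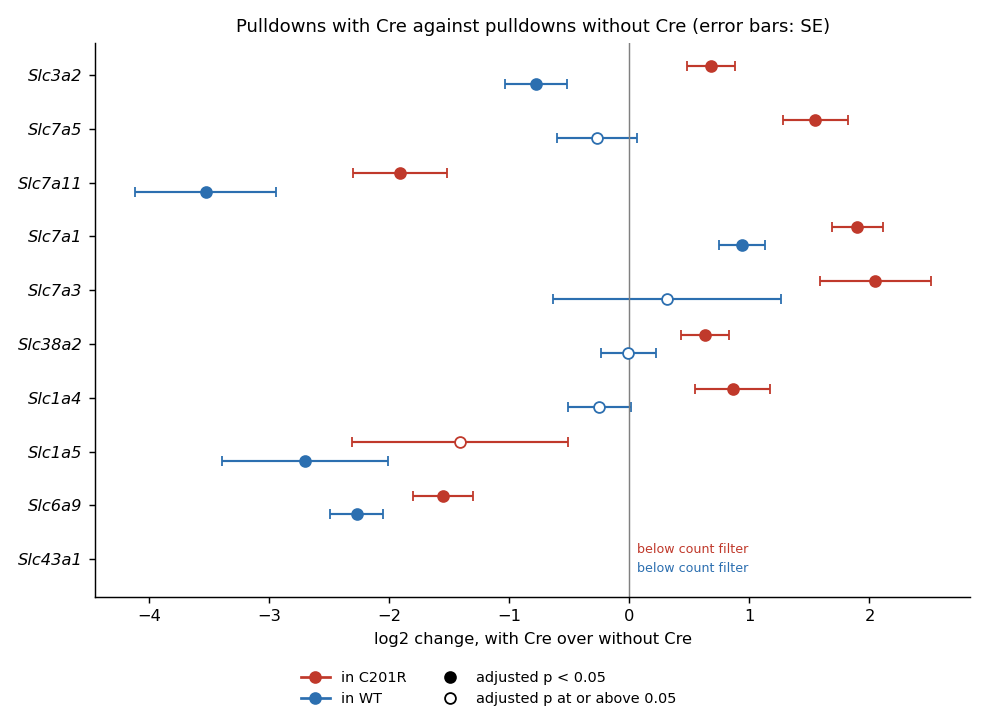
Log2 change of each carrier between pulldowns with Cre and without Cre (x axis), in C201R in red and in WT in blue, from edgeR, with SE bars. Filled points have an adjusted p under 0.05. Slc7a1 lies above 0 and Slc7a11 and Slc6a9 below 0 in both genotypes, and Slc43a1 was below the count filter.

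Levels of different carriers were compared by the deposited TPM values, which are scaled to library size and divided by transcript length. In C201R with Cre, Slc3a2 averaged 49.8 ± 15 TPM, Slc38a2 42.5 ± 22.8, Slc7a5 25.1 ± 11.2, Slc7a1 23.7 ± 14.6, Slc1a4 15.3 ± 8.91, Slc6a9 8.53 ± 4.13, Slc7a3 7.49 ± 3.82, Slc7a11 4.28 ± 1.36, Slc1a5 0.51 ± 0.327 and Slc43a1 0.103 ± 0.104 TPM (SD, n = 6). In that order only Slc7a11 and Slc1a5 had ranges without overlap. All carriers were measured in the same 6 libraries, so overlapping ranges do not show that neighbours were alike within a library. In WT with Cre the order began with Slc38a2 at 45.3 ± 18.7 TPM and Slc3a2 at 25.7 ± 3.69 TPM, and the ranges of Slc3a2 and the next, Slc7a1 at 13.4 ± 5.08 TPM, did not overlap. Slc7a5 at 11 ± 6.65, Slc1a4 at 11 ± 4.7, Slc6a9 at 4.56 ± 0.833, Slc7a11 at 2.5 ± 1.86, Slc7a3 at 1.47 ± 1.2, Slc1a5 at 0.428 ± 0.25 and Slc43a1 at 0.3 ± 0.286 TPM followed, each overlapping its neighbour.

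Without Cre, Slc38a2 and Slc3a2 were again the most abundant, at 20.2 ± 9.6 and 19.6 ± 8.05 TPM in C201R and at 17.7 ± 7.05 and 17.9 ± 5.1 TPM in WT. Slc6a9 came next, at 15.1 ± 9.18 TPM in C201R and 9.62 ± 2.42 TPM in WT, and then Slc7a11, at 9.57 ± 2.7 TPM in C201R and 8.9 ± 3.9 TPM in WT. The ranges of all neighbours in the order overlapped in both groups without Cre. TPM moves with the length that RSEM assigned, which varied between libraries from 1494 to 3368 bases for Slc7a5 and from 948 to 3027 bases for Slc6a9. It also varied from 270 to 2657 bases for Slc1a5, 1145 to 3780 for Slc43a1 and 1317 to 2596 for Slc7a3. For Slc7a1 it was 3503 to 7034 bases and for Slc7a11 3201 to 6247. It was steadier for Slc3a2 (2404 to 2446 bases), Slc38a2 (4458 to 4481) and Slc1a4 (3714 to 3781).

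The make-up of the light chains that pair with Slc3a2 was described with counts divided by 1 length per gene, the median effective length over the 24 libraries. Slc7a10, a further partner, was assigned only 377 to 804 bases, so the shares are given without it and then with it. Over Slc7a5, Slc7a6, Slc7a7, Slc7a8 and Slc7a11, Slc7a5 took 28.4%, 60.1% and 73.6% in C201R with Cre (lowest, median and highest), against 19.8%, 33.1% and 38% in WT with Cre. Of these 5 chains, Slc7a5 was the largest in all 6 C201R libraries with Cre. In 5 of the 6 WT libraries with Cre the largest was Slc7a8, a carrier of neutral amino acids, which took 21.6%, 46.9% and 51.3% there and 11%, 19.9% and 29.7% in C201R with Cre. In the sixth, 14701-9, Slc7a11 took 46.2%. Slc7a8 itself was not called between genotypes, with 19.4 CPM in C201R and 20.7 CPM in WT with Cre (0.06 ± 0.20). Among these 5 chains without Cre, Slc7a11 had the largest median share, 56.5% in C201R and 51% in WT. The ranks changed when Slc7a10 was counted. Slc7a10 then took 12.4%, 22.8% and 27.1% in C201R with Cre and 29%, 35.1% and 43.5% in WT with Cre, and Slc7a5 took 20.7%, 46.2% and 62.5% in C201R with Cre and 11.2%, 22.5% and 24.9% in WT with Cre. Of the 6 chains, Slc7a5 was the largest in 5 of 6 C201R libraries with Cre, and Slc7a10 in 14003-1. Slc7a10 was the largest in 5 of 6 WT libraries with Cre, and Slc7a8 in the other. Without Cre, Slc7a10 was the largest in all 12 libraries, with medians of 57.5% in C201R and 63.8% in WT. The ratio of Slc3a2 to these 5 light chains was 0.994, 1.23 and 2.03 in C201R with Cre and 0.682, 0.822 and 2.02 in WT with Cre. The groups overlapped, also without 14701-9, since mouse 14002-6 had 1.13. With Slc7a10 also counted, the ratio was 0.727, 1.02 and 1.48 in C201R with Cre and 0.447, 0.559 and 1.14 in WT with Cre. Those groups overlapped through 14701-9 alone, as the next WT library, 14002-6, had 0.69. Slc7a3 took 18.4%, 22.1% and 36.8% of the cationic pair Slc7a1 and Slc7a3 in C201R with Cre and 2.22%, 6.59% and 53.5% in WT with Cre, where 14701-9 was again the highest. These shares are descriptions and were not tested.

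**Figure D4:**
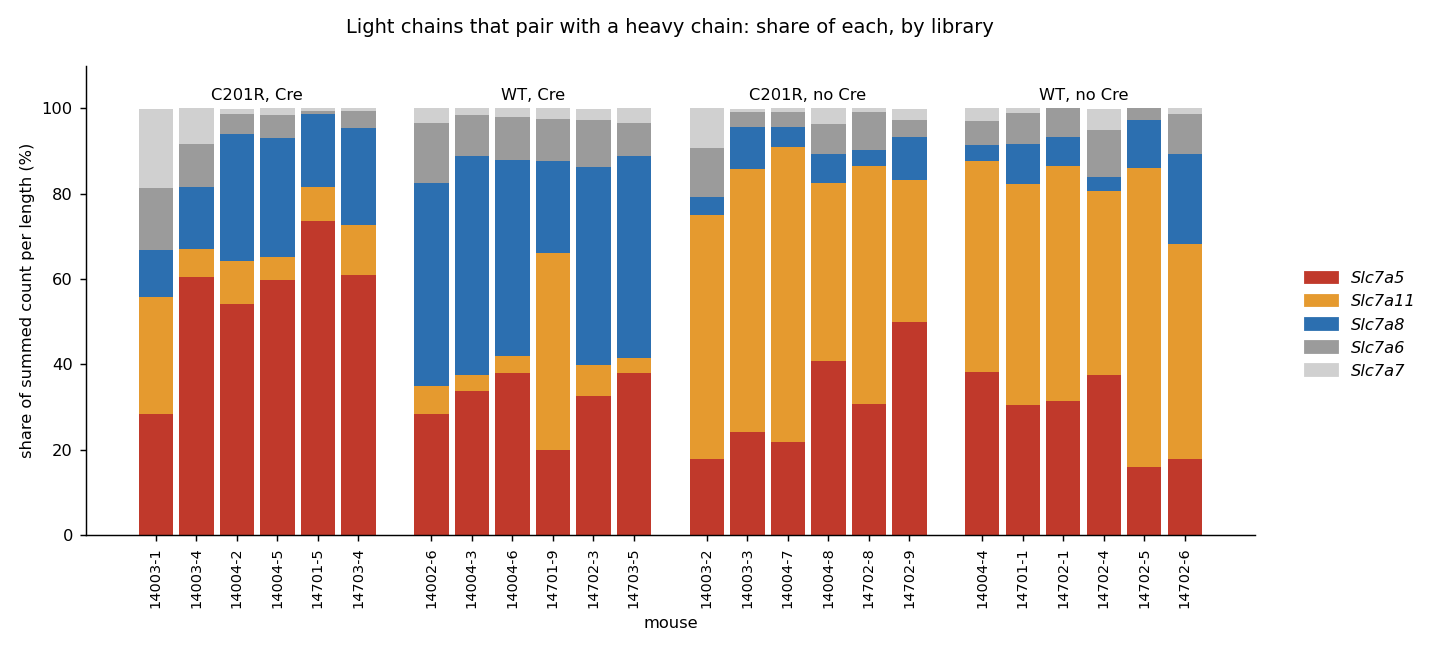
Share of each of 5 light chain genes in their summed count per length (y axis, percent), in each of the 24 libraries along the x axis. Slc7a5, in red, is the largest share in the 6 C201R libraries with Cre, and Slc7a8, in blue, in 5 of the 6 WT libraries with Cre. Slc7a10 is not plotted, and with it these ranks change.

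The genes most alike to the called carriers over the 12 libraries with Cre were found by Pearson's r of log2(CPM + 1) among 10514 genes with a mean of at least 2 CPM. Closest to Slc7a1 were Mthfd2 (r = 0.956), a mitochondrial enzyme of folate metabolism, Dach2 (0.943), a transcriptional cofactor, and Adcyap1r1 (0.942), a neuropeptide receptor. Closest to Slc7a5 was Mthfd1l (0.961), another mitochondrial folate enzyme. Closest to Slc3a2 was Cox6a2 (0.984), a respiratory chain subunit best known from muscle, which averaged 9.03 CPM in C201R and 0.167 CPM in WT with Cre. Closest to Slc6a9 was the cell cycle inhibitor Cdkn1a (0.957), and to Slc1a4 the secretory pathway gene Sec62 (0.947). The 12 points share the genotype difference, so part of each r comes from it. Over these 7 pairs of genes, r was between 0.76 and 0.97 within the 6 C201R libraries. Within the 6 WT libraries it was between 0.77 and 0.98. Each gene was picked for its high r over these same 12 libraries, so these values are not independent evidence of likeness. In WT, mouse 14701-9 stood apart for Slc3a2 and Slc1a4 and was the lowest for Slc7a1 and Slc7a5. In C201R with Cre, mouse 14003-1 was the highest for Slc3a2 and the lowest for Slc7a1, Slc7a5 and Slc1a4. Values of r without these libraries were not computed.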

How the data were processed

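Ribosome-associated RNA of 24 spinal cord pulldowns was analysed. The authors deposited expected counts and TPM per gene, and the submitters' processing notes name RSEM 1.2.12 and Bowtie2 2.2.0. A genome build, annotation and strand setting for the counting are not given in the sources used here. Of 38924 gene identifiers, 37607 matched GENCODE, with all 10 carriers among them. Expected counts, of which 15% were not whole, were rounded. RSEM divides reads between similar genes by estimate. No 2 libraries of a group differed by as little as sampling noise.

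Comparisons of 2 groups used only the 12 libraries concerned, and the interaction used all 24, in edgeR 4.0.16 in R 4.3.3 (filterByExpr, TMM, robust quasi-likelihood F test, library series as a term). Adjusted p are Benjamini-Hochberg over all genes tested, called under 0.05. SE is the log2 change over the square root of F, and 95% intervals use the t distribution with the degrees of freedom of that test. CPM values share a TMM scaling over 24 libraries. Carriers below the filter got an exact permutation test. TPM were used as deposited, for levels between genes. The steps were tested on simulated data. DESeq2 1.42.0, other scalings, filters, covariates and subsets were alternatives.

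The carriers and gene lists were chosen with earlier results of these data known, so their direction is not independent evidence. Genes named beside the carriers are the called members of each list, up to 5 by p, or else the 2 most abundant, the most alike genes, and Gars, Chat and Atf4. Gclm, Gclc, Slc6a5, Slc7a8 and Ccdc24 were named after their values were seen. Promoter sequences are from RefSeq. P-values measure the spread between libraries, 6 a group, taken as separate mice.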

Additional observations from a re-analysis of the deposited data

Results flagged for a closer look

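The CPM of each carrier in each group of 6 was screened for a library whose gap to the nearest other exceeded 0.625 of the range of the group. For independent, normally distributed values, chance flags about 1 in 20 such groups. The CPM values were not checked for this, and the groups share the same 24 libraries, so this rate is only a rough guide. Of 40 groups screened, 9 had such a library, and 6 of the 9 were mouse 14701-9 of WT with Cre. It was the highest of that group for Slc3a2 (45.1 CPM, the others 21.4 to 27.8), Slc7a11 (22.2 CPM, the others 2.39 to 4.69), Slc7a3 (6.94 CPM, the others 0.231 to 1.48), Slc1a5 (1.71 CPM, the others 0.0617 to 0.555) and Slc43a1 (2.09 CPM, the others 0 to 0.462), and the lowest for Slc1a4 (5.42 CPM, the others 17.5 to 19.5). This library had 17.11% of counts from mitochondrial transcripts, and its summed marker levels were 322 CPM for astrocytes and 1080 CPM for oligodendrocytes, the highest of WT with Cre. Their part in these values was not tested.

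In C201R with Cre, mouse 14003-1 was high for Slc7a11 (37.2 CPM, the others 7.03 to 14.1). In WT without Cre, mouse 14004-4 was high for Slc7a1 (25.6 CPM, the others 15.6 to 17.1) and mouse 14701-1 for Slc38a2 (116 CPM, the others 55.4 to 70.2).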

How the results depend on the processing

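In the genotype comparison with Cre, the count of carriers called was 5 with TMM and RLE scaling. It was 8 with DESeq2 (Slc7a3, Slc7a11 and Slc38a2 added), 7 in library series 2 alone and without mice 14003-1 and 14701-9, 4 without the library series term, 3 with no filter on low counts, with a replicate block by the prefix of the mouse number and with Gm26924 added as a covariate, and 0 with library totals and in library series 1 alone. Leaving out 1 library gave 3 to 7. All genes called, 601, became 1950 without the pair of libraries, 1370 in series 2, 1344 with DESeq2, 291 without the series term, 122 with the Gm26924 covariate, 75 with the block, 32 with library totals, 1 in series 1 and 170 to 936 when 1 library was left out. The cause of these changes was not tested, except that series 1 held 5 libraries. Every carrier tested with Cre kept its sign under all settings run except Slc1a5, at -0.96 in series 1, -0.07 with the Gm26924 covariate and -0.22 to 1.01 without 1 library. The prefix did not pair the libraries: deviations of libraries with the same prefix had a median correlation of 0.04 over 40 pairs, against 0.02 over 176 others. The block called Slc3a2, Slc7a5 and Slc7a1.

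Without Cre, 0 carriers were called under any setting. All genes called were 0, against 6 with no filter, 2 with DESeq2 and 1 with the block. Signs changed for Slc3a2 (-0.13 with the block, -0.12 in series 2, -0.12 to 0.29 without 1 library), Slc7a11 (-0.06, block), Slc1a5 (0.44, block) and Slc43a1 (0.02 with library totals, -0.6 to 0.09 without 1 library).

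Between pulldowns with and without Cre, the counts of carriers called stayed within 1.5 times, except 3 with the block in WT against 5. Library totals moved the median of all genes to 0.64 in C201R and 0.84 in WT. In WT they turned the sign of Slc3a2 (0.18), Slc7a5 (0.7), Slc38a2 (0.96) and Slc1a4 (0.71). Slc38a2, near 0 in WT, was also 0.02 with RLE and DESeq2, 0.19 with no filter, 0.36 in series 2, 0.17 without the pair of libraries and -0.09 to 0.34 without 1 library. Slc7a3 in WT was -0.37 without the pair and -0.37 to 1.08 without 1 library.

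In the interaction, carriers called were 0, against 2 with DESeq2, 1 without the pair and 0 to 1 without 1 library. All genes called were 21, against 115 with DESeq2, 43 without the pair, 6 with the block, 1 with library totals and 11 to 37 without 1 library. Series 2 turned Slc38a2 to -0.21 and Slc43a1 to 0.68, and Slc43a1 ran from -1.25 to 0.47 without 1 library. With medians in place of means, each TPM level moved by less than its SD. Counts under about 1 CPM limited Slc1a5 and Slc43a1 with Cre.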

Other observations

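Other plasma membrane amino acid carriers were also compared between pulldowns with and without Cre. Of 25 tested in each genotype, 2 were higher with Cre and 13 lower in C201R, and 4 were higher and 14 lower in WT. Of all genes tested, 56.8% were called in C201R, 30.5% higher and 26.3% lower. In WT 60.6% were called, 27.7% higher and 32.8% lower. In both genotypes these carriers were called lower more often than all genes, and higher less often. The genes higher in both genotypes, named after their values were seen, were Slc7a8, a partner of Slc3a2, and Slc6a15, a carrier of branched-chain amino acids and proline. Slc7a8 averaged 19.4 CPM with Cre and 4.11 CPM without Cre in C201R (log2 change 2.44 ± 0.28, SE, edgeR adjusted p = 1.2e-06), and 20.7 CPM with Cre and 4.82 CPM without Cre in WT (1.96 ± 0.37, adjusted p = 3.3e-04). Slc6a15 averaged 35.2 CPM with Cre and 12.1 CPM without Cre in C201R (1.79 ± 0.19, adjusted p = 6.2e-07), and 45.5 CPM with Cre and 13.2 CPM without Cre in WT (1.67 ± 0.27, adjusted p = 7.4e-05). Neither was called between genotypes with Cre (adjusted p = 0.92 for Slc7a8 and 0.55 for Slc6a15).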
